A study of Mus musculus with 18 samples.

Results

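The genes described here encode the proteasome and its partners in mouse spleen. They were taken from the count table by name: a protein-coding gene entered the set if its symbol begins with Psma, Psmb, Psmc, Psmd, Psme or Psmf followed by a digit and its counts averaged at least 1 CPM (counts scaled to a common library total) over all libraries. The rule used no contrast between genotypes. Of 55385 genes in the table, 50 carried such a name and 45 became members. The other 5 were 4 pseudogenes and Psmb11, the catalytic subunit of the thymus-specific proteasome, which was near 0 with at most 1 count in a library. One member, Psmc3ip, carries the name of its binding partner Psmc3 but encodes a meiotic recombination protein and no proteasome subunit.

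Poly(A) RNA was sequenced from whole spleens of 18 mice with a strand-specific kit, 6 libraries for each of 3 genotypes with 3 males and 3 females each. Dp16 mice have a segment of chromosome 16, bounded by Lipi and Zbtb21, in 3 copies. Dp16_2xIFNRs mice have that segment in 3 copies too, with Ifnar1, Ifnar2, Ifngr2 and Il10rb back at 2 copies, and WT mice are C57BL/6J. The mice are described as adult, and an age label of 17.1 to 18 stands under a tag of days post conception, a unit that is not interpreted here. No treatment was given, and the labels do not say how littermates were shared. The duplication is present in all cells of the animal, so a difference in the spleen need not arise in one cell type. Since each library is a whole organ, more cells of a type and more RNA per cell cannot be told apart for any gene below.

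The 20S core of the proteasome is a barrel of stacked alpha and beta rings, and its beta rings hold the active sites that cut proteins marked with ubiquitin. The 19S particle caps the barrel, recognises ubiquitin, removes it and feeds the unfolded chain inward with a ring of ATPases. Interferon-gamma makes cells replace the standard catalytic subunits by inducible ones and add the PA28 activator ring, which gives the immunoproteasome of antigen-presenting cells. In the replacement Psmb8 takes the place of Psmb5, Psmb9 that of Psmb6 and Psmb10 that of Psmb7, while Psme1 and Psme2 form the PA28 ring. Those 5 are the interferon-inducible members.

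None of the 45 members lies in the triplicated interval, which spans chr16:75540514-97962622 on GRCm38 between the outer ends of Lipi and Zbtb21. Psmd2 is the member on chromosome 16, at chr16:20651652-20663414, outside the interval. The members are spread over 16 chromosomes. Psmb8 (chr17:34197721-34201454, plus strand) and Psmb9 (chr17:34181987-34187764, minus strand) are neighbours in the class II region of the major histocompatibility complex. Psme1 (chr14:55578123-55581529, plus strand) and Psme2 (chr14:55587441-55591113, minus strand) are neighbours too. Psmb10 lies at chr8:105935735-105938444. The standard counterparts lie on different chromosomes, Psmb5 at chr14:54614119-54618022, Psmb6 at chr11:70525367-70527858 and Psmb7 at chr2:38588036-38644087. Psmb11, no member, lies close to Psmb5 at chr14:54621433-54629556.

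Standard and inducible genes were set side by side in their start regions, since transcription factors known for each group read different letters there. RefSeq promoter windows on GRCm38.p6, 250 bases before and 50 after each start, were found for 38 members with 41 windows, including all 5 inducible ones. Each was searched on both strands for the motifs given here, and matches of different motifs were counted separately even where they overlap. TGACNNNGC, the core of the antioxidant response element that Nfe2l1 and Nfe2l2 bind, occurred in 6 of 38 members (15.8%) and in 12.4% of all 32851 windows. None of the 5 inducible genes had it, a number too small to set them apart from all windows. The core of the interferon-stimulated response element occurred in 4 members (10.5%), Psmb3, Psmd4, Psmd9 and Psme1, and in 3.44% of all windows. CCAAT, the box read by NF-Y, occurred in 14 members (36.8%), among them Psmb9 alone of the inducible ones, and in 37.4% of all windows. The members' shares were not tested against those of all windows, and a match is only a run of letters, not a shown binding site. The 150 bases before the start follow for Psmb5, Psmb6 and Psmd9, with TGACNNNGC in capitals, and for the inducible Psmb9, with CCAAT read on the other strand in capitals. They are written 5′ to 3′ on the strand of the gene and come from chr14:54617996-54618145 (minus), chr11:70525207-70525356 (plus), chr5:123228040-123228189 (plus) and chr17:34187331-34187480 (minus).
Psmb5: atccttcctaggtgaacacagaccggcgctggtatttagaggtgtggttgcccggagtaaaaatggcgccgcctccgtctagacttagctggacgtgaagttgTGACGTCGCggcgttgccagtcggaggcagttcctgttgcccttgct
Psmb6: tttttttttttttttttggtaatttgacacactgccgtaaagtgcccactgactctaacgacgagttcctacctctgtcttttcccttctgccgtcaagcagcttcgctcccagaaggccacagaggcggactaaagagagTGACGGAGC
Psmd9: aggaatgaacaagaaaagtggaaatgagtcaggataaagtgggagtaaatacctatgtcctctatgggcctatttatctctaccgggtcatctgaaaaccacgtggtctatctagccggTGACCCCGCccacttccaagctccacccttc
Psmb9: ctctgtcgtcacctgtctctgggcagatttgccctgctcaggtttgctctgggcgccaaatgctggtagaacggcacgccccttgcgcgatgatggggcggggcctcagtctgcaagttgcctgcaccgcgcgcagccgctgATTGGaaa
The TGACNNNGC match begins 47 bases before the RefSeq start in Psmb5, 9 in Psmb6 and 31 in Psmd9. The RefSeq starts need not be those of the gene models behind the positions given above. The Psmb9 and Psmd9 stretches lie inside the spans of those models, chr17:34181987-34187764 and chr5:123169413-123250131.

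Library totals were 33998427 to 47704112 counts in Dp16, 40607834 to 53021480 in Dp16_2xIFNRs and 36875189 to 46991153 in WT. The 45 members took 0.573% ± 0.0231 of the counts in Dp16, 0.583% ± 0.0371 in Dp16_2xIFNRs and 0.480% ± 0.0250 in WT (SD, n = 6 each). No member had a count of 0 in any library, and the lowest count was 26, of Psma8. Tlx1, needed to form the spleen, Spic, of red pulp macrophages, and Cd3e, of T cells, were present in every library, with group medians from 21.1 CPM for Tlx1 in Dp16 to 186 CPM for Cd3e in Dp16. None of 7 acinar markers of the neighbouring pancreas passed the filter, and Amy2a5 was at 0 throughout. The 4 receptor genes, which check the genotype labels, were lower in Dp16_2xIFNRs than in Dp16 by 0.46 to 0.59 on the log2 scale. In 4 libraries (Dp16 replicates 2 and 3, Dp16_2xIFNRs replicate 5 and WT replicate 4) over 4% of counts fell on Gm42418, a model that overlaps ribosomal RNA sequence, and counts of members are also given without them. The labels number the animals within a genotype. A code in the descriptions is shared by 11 libraries in 5 sets, each with more than 1 genotype and 4 with a single age label, and the labels do not say what it stands for. Only 1 of the 5 sets holds both Dp16 and WT, and a fit with the code as a block leaves 4 residual degrees of freedom. Nothing else is given on the animals' independence, so p-values measure the spread between these samples.

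Levels can be compared between genes only per length, and the authors' RPKM (reads scaled by gene length and library total) give that scale. Over all 18 libraries Psme1 had the highest mean level, 282 RPKM, followed by the standard Psmb6 with 183, the inducible Psmb8 with 179 and the inducible Psme2 with 162. The 14 standard core subunits (Psma8 left out) spanned 38.0 RPKM (Psma3) to 183 (Psmb6), with a median of 104, and Psma7 was the highest alpha subunit with 131. The 20 genes of the 19S particle and its assembly spanned 12.6 (Psmd5) to 100 RPKM (Psmc3), and Psmd4, a ubiquitin receptor, led the non-ATPase subunits with 91.4. The 3 inducible catalytic subunits, at 84.2 (Psmb10) to 179 RPKM (Psmb8), lay within the span of the standard core. The 3 scarcest members were well below. Psma8, the testis form of an alpha subunit, had 0.964 RPKM, Psmc3ip 6.98 and Psme2b 7.17.

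Setting Dp16 against WT shows how proteasome genes, none of them on the interval, differ where it is present in 3 copies. The standard proteasome genes were higher in Dp16 spleens, most by a ratio near 1.33, and the 5 inducible genes were not called, although other fits called Psme2 or both Psme1 and Psme2. All 35 genes of the 20S and 19S particles and their assembly passed the test upward, 8 alpha and 7 beta genes of the core, 6 ATPases, 11 other 19S subunits and 3 assembly factors. Their median log2 fold change was 0.41, a ratio of 1.33, and the range ran from 0.29 in Psmd11 to 1.01 in Psma8. With the description code as a block 30 of the 35 were called and all 35 values stayed positive; Psma8, Psmb6, Psmd3, Psmd8 and Psmd11 were not called. Of all 45 members, 38 were higher, 1 was lower and 6 were not called in the edgeR quasi-likelihood test at a Benjamini-Hochberg adjusted p below 0.05, computed over all 18634 tested genes. In the background 16.6% of all tested genes were higher and 13.2% lower, with a median log2 fold change of -0.01. That background includes genes scarcer than the 1 CPM asked of members. With a filter of 1 CPM in 6 libraries, 3168 of 14760 genes were higher and 2524 lower. All 6 Dp16 libraries exceeded all 6 WT libraries for 30 members, against 8.48% of all tested genes, and no member had all Dp16 libraries below WT, against 4.34%.

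That background depends on the scaling. TMM, a trimmed-mean scaling between libraries, gave 3091 genes higher and 2462 lower in Dp16. Upper-quartile scaling gave 2558 and 3333, and RPKM, scaled by library total alone, gave 2238 and 3946, where the median of all genes was at -0.13. The 35 genes kept a positive sign and passed the test under all 3. A change of scaling shifts all genes by nearly the same amount. The distance of a group's median from that of all genes therefore hardly moves, and it does not test the scaling. That distance was 0.43 on the log2 scale for the 35 genes and 0.16 for the 5 inducible genes in each case. Without the 4 libraries rich in Gm42418, 38 members were again higher and 1 was lower. Of all 18976 genes tested in that fit, 2493 were higher and 1683 lower, fewer than with all libraries.

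**Figure D1:**
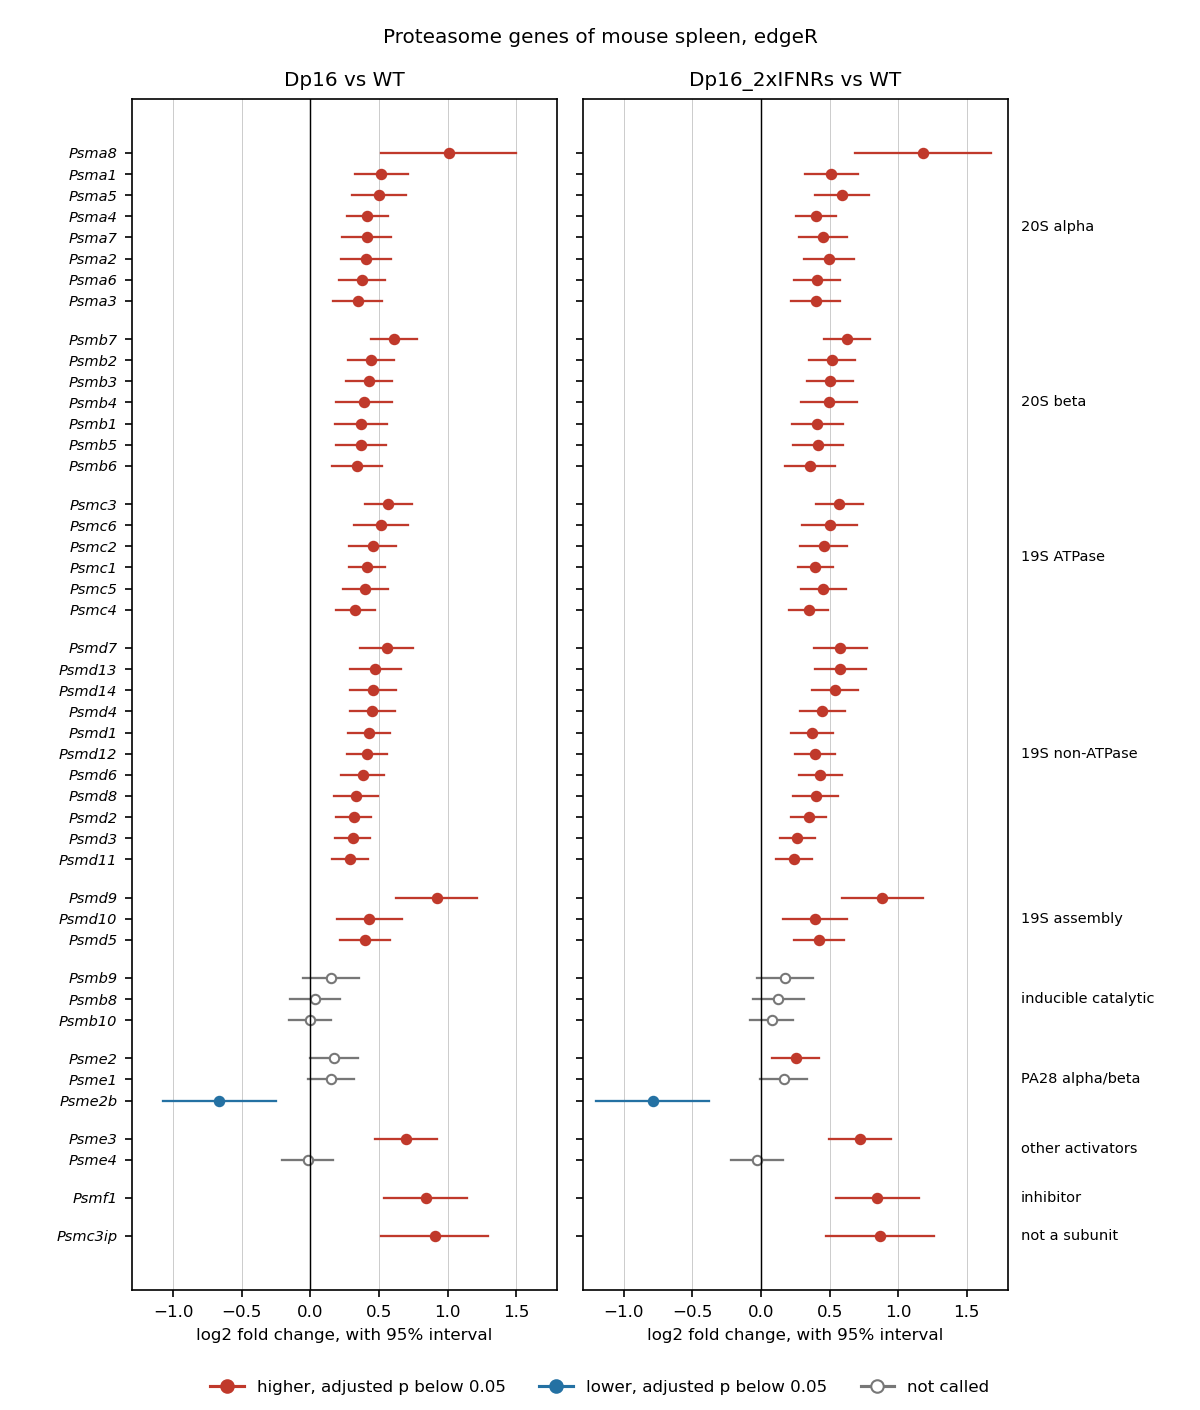
Log2 fold changes of the 45 members (rows, grouped by role) against WT in Dp16 (left) and Dp16_2xIFNRs (right), with 95% intervals from edgeR; filled red points were called higher, filled blue lower, open grey not called. The 35 genes of the 20S and 19S particles lie right of 0 in both panels, from 0.29 and 0.24 upward, while Psmb8, Psmb9, Psmb10 and Psme1 are open and Psme2b lies left of 0.

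Within the core, Psmb7, the subunit with trypsin-like activity, had the smallest p of all members. Its level was 106 to 116 CPM in Dp16 (median 109), 97.0 to 130 in Dp16_2xIFNRs (median 106) and 66.2 to 89.6 in WT (median 68.4), after TMM scaling as for all CPM below. Neither mutant genotype overlapped WT, although WT replicate 2 stood far above the other WT libraries. The fold change was 0.61 ± 0.08 (log2, SE) in Dp16, with an edgeR adjusted p of 2.82e-05, and 0.63 ± 0.08 in Dp16_2xIFNRs, with an adjusted p of 2.43e-05. Nek6 shares 11.8% of the exon bases of Psmb7 on the opposite strand and was not called in either comparison (0.01 in Dp16 and -0.09 in Dp16_2xIFNRs).

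Psmb5, with chymotrypsin-like activity, reached 83.3 to 106 CPM in Dp16 (median 93.8), 83.9 to 115 in Dp16_2xIFNRs (median 97.4) and 61.1 to 88.1 in WT (median 72.4). The highest WT library, replicate 2, lay among the lowest libraries of both mutant genotypes, so the ranges overlapped. Its log2 fold change was 0.37 ± 0.09 in Dp16 (edgeR adjusted p = 0.00323) and 0.41 ± 0.09 in Dp16_2xIFNRs (0.00122). Psmb6, with caspase-like activity, reached 138 to 168 CPM in Dp16 (median 160), 126 to 186 in Dp16_2xIFNRs (median 157) and 114 to 131 in WT (median 127). Dp16 did not overlap WT, while the lowest Dp16_2xIFNRs libraries did. The fold changes were 0.34 ± 0.09 (edgeR adjusted p = 0.00497) and 0.36 ± 0.09 (0.00328). With the description code as a block the Dp16 value was 0.33 and not called (adjusted p = 0.11). Part of the Psmb5 exons, 12.1%, is also annotated as Mir686 on the same strand, which did not pass the filter.

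Psma7, the most abundant alpha subunit by RPKM, rose by 0.41 ± 0.09 in Dp16 (edgeR adjusted p = 0.00106) and by 0.45 ± 0.09 in Dp16_2xIFNRs (0.000464). Psma8, which replaces Psma7 in the testis, was the scarcest member and had the largest fold changes of the set. It had 1.22 to 2.64 CPM in Dp16 (median 1.90), 1.72 to 3.09 in Dp16_2xIFNRs (median 1.96) and 0.558 to 1.63 in WT (median 0.907). The top WT library reached into the Dp16 range but stayed below Dp16_2xIFNRs. By edgeR the differences were 1.01 ± 0.24 (adjusted p = 0.00282) and 1.18 ± 0.24 (0.000764). With the description code as a block the Dp16 value was 1.33 and not called (adjusted p = 0.0996).

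In the 19S particle, the 6 ATPases rose by 0.33 to 0.57 in Dp16. Psmc3 had 204 to 269 CPM in Dp16 (median 234), 206 to 267 in Dp16_2xIFNRs (median 223) and 133 to 183 in WT (median 155). All libraries of both mutant genotypes lay above all WT libraries. Its edgeR fold changes were 0.57 ± 0.08 in Dp16 (adjusted p = 5.51e-05) and 0.57 ± 0.08 in Dp16_2xIFNRs (5.13e-05). Psmc1, another ATPase, rose by 0.41 ± 0.06 in Dp16 and by 0.40 ± 0.06 in Dp16_2xIFNRs, again with no overlap with WT.

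The 11 other 19S subunits rose by 0.29 to 0.56 in Dp16. Psmd14, the enzyme that removes ubiquitin from the substrate, had 73.4 to 90.0 CPM in Dp16 (median 86.5), 74.6 to 103 in Dp16_2xIFNRs (median 90.8) and 55.7 to 73.9 in WT (median 61.1). The lowest Dp16 library, replicate 2, just fell below the highest WT library, replicate 2, and Dp16_2xIFNRs stayed above WT. EdgeR gave fold changes of 0.46 ± 0.08 in Dp16 (adjusted p = 0.000274) and 0.54 ± 0.08 in Dp16_2xIFNRs (7.03e-05). Psmd13, of the 19S lid, rose by 0.47 ± 0.09 in Dp16 and 0.58 ± 0.09 in Dp16_2xIFNRs, and Psmd4 by 0.45 ± 0.08 in both. Sirt3, which shares 10.1% of the exon bases of Psmd13 on the opposite strand, was also higher, by 0.48 and 0.38, at 8.14 CPM in Dp16, 7.59 in Dp16_2xIFNRs and 5.84 in WT.

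Of the 3 assembly factors of the 19S base, Psmd9 changed most. It had 56.3 to 74.4 CPM in Dp16 (median 62.4), 45.5 to 91.6 in Dp16_2xIFNRs (median 58.3) and 26.5 to 46.8 in WT (median 32.3). Dp16 stood apart from WT, and the lowest Dp16_2xIFNRs library lay just under the highest WT library. Fold changes by edgeR were 0.92 ± 0.14 (adjusted p = 0.000106) and 0.89 ± 0.14 (0.000136). A gene model on the opposite strand, Gm26745, shares 25.5% of the Psmd9 exon bases, and whether the counting used strand is not given in the sources used here. Psmd10, an ankyrin-repeat chaperone also known as gankyrin, rose by 0.43 ± 0.11 (edgeR adjusted p = 0.00623) and 0.39 ± 0.11 (0.0103).

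Activators and inhibitors split. Psme3, which forms the nuclear PA28 gamma ring and is not interferon-inducible, had 273 to 383 CPM in Dp16 (median 326), 285 to 393 in Dp16_2xIFNRs (median 314) and 157 to 265 in WT (median 198). Both mutant genotypes lay above WT with no overlap. Its edgeR fold changes were 0.70 ± 0.11 (adjusted p = 0.000103) and 0.72 ± 0.11 (7.77e-05). Psmf1, a proteasome inhibitor known as PI31, had 69.7 to 92.8 CPM in Dp16 (median 84.2), 68.1 to 108 in Dp16_2xIFNRs (median 72.4) and 35.5 to 69.1 in WT (median 42.1). One WT library reached the bottom of the Dp16_2xIFNRs range. The edgeR fold changes of Psmf1 were 0.84 ± 0.14 (adjusted p = 0.00028) and 0.85 ± 0.14 (0.000245). Psme4, the activator PA200, was not called, with -0.02 ± 0.09 (95% interval -0.21 to 0.17) and -0.03 ± 0.09 (-0.22 to 0.16).

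Psme2b was the one member called lower. It had 4.05 to 7.64 CPM in Dp16 (median 4.67), 2.34 to 6.17 in Dp16_2xIFNRs (median 4.70) and 6.71 to 11.3 in WT (median 7.56). Dp16_2xIFNRs lay below WT throughout, and 1 Dp16 library, replicate 2, reached into the WT range. The edgeR fold changes were -0.66 ± 0.20 (adjusted p = 0.0137) and -0.79 ± 0.20 (0.00395). With the description code as a block the Dp16 value was -0.28 and was not called (adjusted p = 0.597), while the Dp16_2xIFNRs value was still called. The Psme2b transcript of 837 bases aligned with 96.2% identity to a transcript of Psme2, so reads of the abundant Psme2 and the scarce Psme2b may have been assigned to either, and the value of Psme2b is uncertain. Psmc3ip, no proteasome subunit, was higher by 0.91 ± 0.19 (edgeR adjusted p = 0.00101) and 0.87 ± 0.19 (0.00135), at 9.04 to 13.5 CPM in Dp16, 7.89 to 13.7 in Dp16_2xIFNRs and 3.54 to 8.80 in WT. Dp16 was above WT and Dp16_2xIFNRs overlapped it. Mlx covers 21.2% of the Psmc3ip exon bases on the other strand and was not called in either comparison.

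The inducible catalytic subunits gave another picture. Psmb8 had 241 to 344 CPM in Dp16 (median 295), 238 to 367 in Dp16_2xIFNRs (median 301) and 252 to 315 in WT (median 277). The 3 ranges lay over each other. The fold change was 0.03 ± 0.09 in Dp16, with a 95% interval of -0.15 to 0.22, and 0.13 ± 0.09 in Dp16_2xIFNRs, with -0.06 to 0.31. In Dp16 the sign of this value turned negative under upper-quartile scaling (-0.03) and on RPKM (-0.08). A gene model on the opposite strand, Gm20496, covers 14.7% of the Psmb8 exon bases at 2.12 CPM in Dp16, 1.55 in Dp16_2xIFNRs and 1.64 in WT.

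Psmb9 had 118 to 165 CPM in Dp16 (median 145), 113 to 184 in Dp16_2xIFNRs (median 144) and 117 to 146 in WT (median 129). The WT range fell within that of Dp16_2xIFNRs and overlapped most of that of Dp16. The fold change was 0.15 ± 0.10 in Dp16, with a 95% interval of -0.05 to 0.36, and 0.17 ± 0.10 in Dp16_2xIFNRs, with -0.03 to 0.38. Psmb10 had 103 to 113 CPM in Dp16 (median 108), 95.8 to 144 in Dp16_2xIFNRs (median 113) and 104 to 115 in WT (median 107). Dp16 and WT were nearly the same range, and the Dp16_2xIFNRs range extended beyond both on either side. Its fold changes were -0.00 ± 0.07 (95% interval -0.16 to 0.15) and 0.08 ± 0.07 (-0.08 to 0.23).

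The PA28 genes Psme1 and Psme2 are the other inducible members. Psme1 had 304 to 340 CPM in Dp16 (median 329), 259 to 397 in Dp16_2xIFNRs (median 331) and 275 to 321 in WT (median 290). The ranges overlapped, and the fold changes were 0.15 ± 0.08 (95% interval -0.02 to 0.32) and 0.16 ± 0.08 (-0.01 to 0.34). Psme2 had 142 to 172 CPM in Dp16 (median 164), 140 to 213 in Dp16_2xIFNRs (median 168) and 134 to 149 in WT (median 146). The lowest library of Dp16, replicate 1, and the lowest 2 of Dp16_2xIFNRs, replicates 1 and 2, fell within the WT range. The fold change was 0.17 ± 0.08 in Dp16 (95% interval 0.00 to 0.35, edgeR adjusted p = 0.128). In Dp16_2xIFNRs it was 0.25 ± 0.08 (adjusted p = 0.0250), the one call among the 5 inducible genes. Leaving out the Gm42418-rich libraries ended that call (adjusted p = 0.132), as did leaving out WT replicates 4 or 5 or Dp16_2xIFNRs replicates 3 or 5 (0.0526 to 0.0886). The call also ended under upper-quartile scaling (0.0877), with no filter (0.0586) and on RPKM by limma-trend (0.203). The smallest adjusted p of the 5 in Dp16 was that of Psme2. None of the 5 was called there by DESeq2 or limma voom, and a fit on the 12 libraries of Dp16 and WT called Psme1 (0.17, adjusted p = 0.0341) and Psme2 (0.19, 0.0190) higher. With the description code as a block, Psme2 was called in Dp16 (0.36, adjusted p = 0.0310), and Psmb9 (0.27, 0.0439), Psme1 (0.26, 0.0410) and Psme2 in Dp16_2xIFNRs. Limma voom called Psme1 (0.20, adjusted p = 0.0331) and Psme2 in Dp16_2xIFNRs. Without Dp16_2xIFNRs replicate 1, which had the lowest summed level of the inducible genes, Psmb8 (0.20), Psmb9 (0.24), Psme1 (0.23) and Psme2 were called higher in Dp16_2xIFNRs vs WT.

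**Figure D2:**
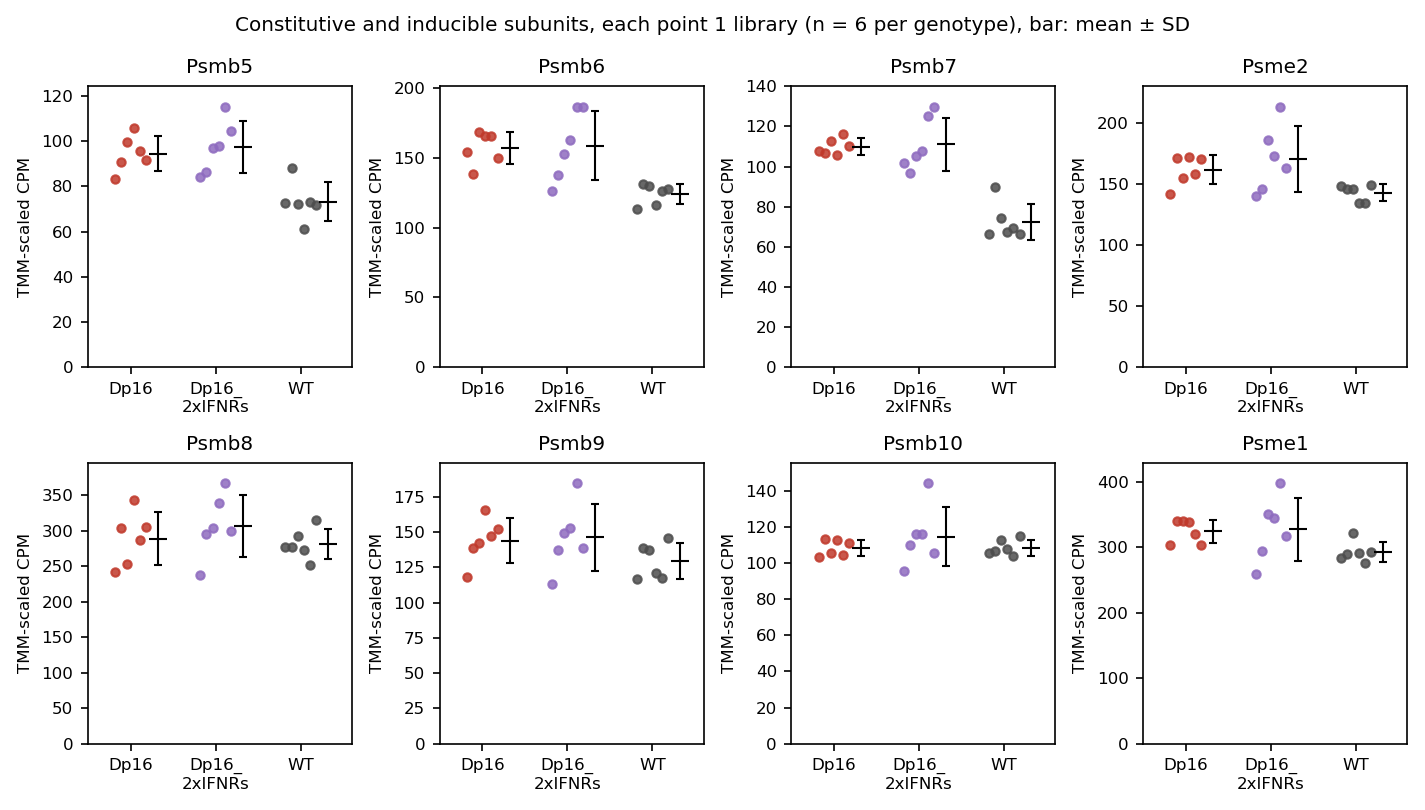
TMM-scaled CPM (axes from 0) of the standard catalytic subunits Psmb5, Psmb6 and Psmb7, the inducible Psmb8, Psmb9 and Psmb10 in the panels beneath them, and the PA28 genes Psme2 and Psme1, by genotype; each point is 1 library, bars are mean ± SD, n = 6. Psmb7 is at 97.0 CPM or more in every Dp16 and Dp16_2xIFNRs library and at 89.6 or less in WT, whereas Psmb10 runs from 95.8 to 144 over all genotypes.

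Because a ratio of genes within a library does not move with the scaling, the balance of inducible to standard catalytic subunit was taken from the RPKM. Psmb10 over Psmb7 was 0.796 to 0.943 in Dp16 (median 0.870), 0.721 to 1.02 in Dp16_2xIFNRs (median 0.964) and 1.05 to 1.54 in WT (median 1.37). Every library of both mutant genotypes lay below every WT library. The mean log2 ratio differed from that of WT by -0.62 in Dp16 and by -0.55 in Dp16_2xIFNRs. Permuting the genotype labels over every split of the 12 libraries, two-sided and exact, gave p = 0.00216 for each, the smallest p it can give, and 0.00974 after Benjamini-Hochberg adjustment over 9 ratio tests. Without the libraries rich in Gm42418 the differences were -0.61 and -0.57 with an adjusted p of 0.0714 each, where the smallest unadjusted exact p is 0.0159 for the 4 Dp16 against 5 WT libraries and 0.00794 for the 5 Dp16_2xIFNRs against 5 WT libraries.

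Psmb8 over Psmb5 was 1.41 to 1.84 in Dp16 (median 1.73), 1.57 to 1.92 in Dp16_2xIFNRs (median 1.74) and 1.74 to 2.47 in WT (median 2.18). The ranges met at the lowest WT libraries, replicates 2 and 5. Relative to WT the mean log2 ratio differed by -0.34 in Dp16 and by -0.30 in Dp16_2xIFNRs, with an exact permutation p of 0.0152 and 0.0195 and an adjusted p of 0.0438 for both. Several single libraries decide this call. In Dp16 vs WT the adjusted p was 0.0506 to 0.0649 without WT replicates 1, 3, 4 or 6 or Dp16 replicates 1, 3 or 5, with differences of -0.34 to -0.29. In Dp16_2xIFNRs vs WT it was 0.0506 to 0.0877 without WT replicates 1, 3, 4 or 6 or Dp16_2xIFNRs replicates 1, 3, 5 or 6, with differences of -0.30 to -0.25. Without the libraries rich in Gm42418 the differences were -0.27 (adjusted p = 0.114) and -0.26 (0.107).

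Psmb9 over Psmb6 was 0.451 to 0.599 in Dp16 (median 0.557), 0.440 to 0.589 in Dp16_2xIFNRs (median 0.567) and 0.549 to 0.673 in WT (median 0.619). The lowest WT library, replicate 5, fell among the libraries of both mutant genotypes. The differences of -0.19 between Dp16 and WT and of -0.18 between Dp16_2xIFNRs and WT had an adjusted exact permutation p of 0.0617 and 0.0506, which miss the threshold of 0.05. Without WT replicate 5 the values were -0.22 (0.0227) and -0.21 (0.0195). The first also passed without Dp16 replicates 2, 4 or 6 (-0.22 to -0.21, adjusted p 0.0422 to 0.0455), and the second without Dp16_2xIFNRs replicates 2 or 5 (-0.20, adjusted p 0.0468 and 0.0487). These tests did not use sex. Exact permutation within sex on all libraries gave the difference between Dp16 and WT an adjusted p of 0.0112.

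**Figure D3:**
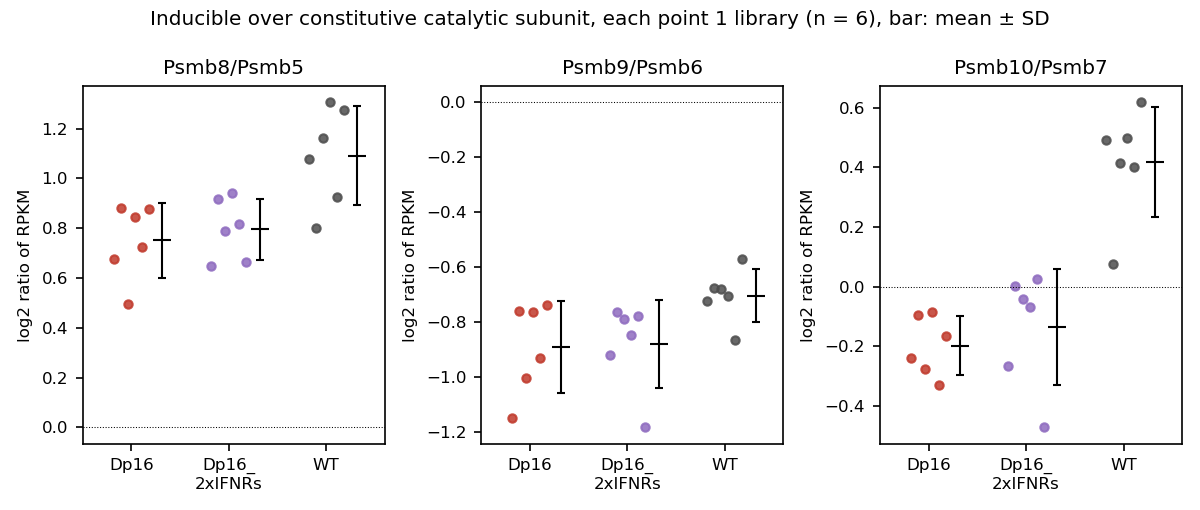
Log2 ratio of the RPKM of an inducible catalytic subunit to the standard subunit it replaces, by genotype; each point is 1 library, bars are mean ± SD (n = 6), and the dotted line marks equal RPKM. Psmb10/Psmb7 is below every WT library in all 12 mutant libraries, while the other ratios overlap between genotypes.

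The comparison of Dp16_2xIFNRs with WT uses the same WT libraries, so its values are given beside those of Dp16 and are not an independent repeat. Of the 45 members, 39 were higher, 1 was lower and 5 were not called, where 17.3% of all tested genes were higher and 14.2% lower. The median log2 fold change was 0.42, against -0.01 for all tested genes. With the filter of 1 CPM in 6 libraries, 3290 of 14760 genes were higher and 2696 lower. All Dp16_2xIFNRs libraries exceeded all WT libraries for 27 members, against 6.83% of all tested genes, and Psme2b was the 1 member wholly below WT, against 5.75%. The 35 genes of the 20S and 19S particles were all called, from 0.24 in Psmd11 to 1.18 in Psma8, although Psmd3 and Psmd11 were not called with the description code as a block. Upper-quartile scaling turned the split of all genes from 3217 higher and 2643 lower to 2677 and 3451, and left 38 members higher. On RPKM the split of all genes was 2328 and 3994 and 35 members were higher, with Psmd3, Psmd10 and Psmd11 among those not called. Without the libraries rich in Gm42418, 37 members were higher, and Psmd10 (0.29, edgeR adjusted p = 0.0617) was the one of the 35 not called. Of all 18976 genes tested in that fit, 2609 were higher and 1734 lower.

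Setting Dp16_2xIFNRs against Dp16 asks what the normal copy number of the 4 receptor genes does on top of the duplication. No member was called in either direction, as by DESeq2, limma voom and limma-trend, and 0 of 45 had an unadjusted edgeR p below 0.05. Among all tested genes 0% were called higher and 0.0215% lower, which are the 4 receptor genes themselves. No member had all libraries of one genotype above or below all of the other, against 0.0537% and 0.0322% of all tested genes. The members' log2 fold changes ran from -0.13 (Psme2b) to 0.17 (Psma8). All 5 inducible genes had small positive values, 0.01 in Psme1, 0.02 in Psmb9, 0.08 in Psme2, 0.08 in Psmb10 and 0.09 in Psmb8, and their 95% intervals together spanned -0.18 to 0.28. Taken over all 14 standard core genes, the lowest bound was -0.20 (Psma1) and the highest 0.31 (Psmb4), and each interval held 0. The 3 catalytic ratios differed by 0.04, 0.01 and 0.06, with adjusted exact permutation p of 0.675, 0.931 and 0.651. The members varied more within Dp16_2xIFNRs, where the median coefficient of variation was 13.1%, than within Dp16 (7.93%) or WT (8.55%), a difference that was not tested.

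No member was called for sex. In males vs females 0 of 45 passed the test, with 0.0537% of all tested genes higher and 0.204% lower, and 2 members had an unadjusted edgeR p below 0.05. DESeq2 also called 0. The fold changes were negative for all 35 genes of the 20S and 19S particles (median -0.07) and positive for all 5 inducible genes (median 0.08), with no call behind either. The sex by genotype interaction called 0 members for Dp16 and 0 for Dp16_2xIFNRs, each against WT, as for 0% of all tested genes. At an unadjusted edgeR p below 0.05 these were 0 and 1, and that 1 gene was Psmc3ip.

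Markers of other spleen cells differed between the genotypes along with the proteasome genes. The summed level of the 35 genes was 4007 to 4682 CPM in Dp16, 3935 to 4984 in Dp16_2xIFNRs and 3020 to 3696 in WT, with no overlap between either mutant genotype and WT. The summed level of the 5 inducible genes was 908 to 1132 CPM in Dp16, 846 to 1306 in Dp16_2xIFNRs and 882 to 1017 in WT, and the ranges overlapped. All 19 tested erythroid markers were higher in Dp16 (median log2 fold change 1.65) and in Dp16_2xIFNRs (1.68), and their sum was 24212 to 44482 CPM in Dp16, 21921 to 46168 in Dp16_2xIFNRs and 5985 to 21722 in WT. All 20 cell-cycle markers were higher in both (medians 1.22 and 1.24), with sums of 3810 to 5563 in Dp16, 3686 to 5548 in Dp16_2xIFNRs and 1178 to 3660 in WT. Of 18 neutrophil markers, 16 were higher in each mutant genotype, with sums of 3459 to 11251 in Dp16, 3891 to 6431 in Dp16_2xIFNRs and 544 to 2086 in WT. B cell markers went the other way: 11 of 12 were lower in each mutant genotype, with sums of 3022 to 3641 in Dp16, 3068 to 3819 in Dp16_2xIFNRs and 4196 to 6102 in WT.

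For T cells 0 markers were higher and 2 lower of 11 in Dp16, with 0 and 1 in Dp16_2xIFNRs. For dendritic cells 0 were higher and 2 lower of 7 in both, and for plasma cells 1 and 1 of 7. Of 9 red pulp macrophage markers, 3 were higher and 0 lower in Dp16, with 4 and 0 in Dp16_2xIFNRs. Over all tested genes 16.6% were higher and 13.2% lower in Dp16, with 17.3% and 14.2% in Dp16_2xIFNRs. These lists are short, and their counts were not tested against those shares. The plasma cell sum was 1814 to 2769.5 CPM in Dp16 (median 2363) and 2056 to 3282 in Dp16_2xIFNRs (median 2707.5). In WT it was 1229.7 to 2483 (median 1496.5), and the ranges overlapped. Within genotypes the libraries highest in the 35 genes were also highest in the erythroid and cell-cycle sums: Dp16 replicate 3, Dp16_2xIFNRs replicate 6 and WT replicate 2. The lowest ones, Dp16 replicate 2, Dp16_2xIFNRs replicate 2 and WT replicate 4, were also lowest in the erythroid sum. Dp16 replicate 3 and Dp16_2xIFNRs replicate 6 share a description code, as do Dp16 replicate 2 and WT replicate 4. Dp16 replicates 2 and 3 and WT replicate 4 were also rich in Gm42418. These matches need therefore not be independent of each other. The order did not match throughout: Dp16_2xIFNRs replicate 1 was next to lowest in the 35 genes (3938.5 CPM) and next to highest in the erythroid (38628) and cell-cycle (5464.5) sums. The lowest cell-cycle sums of the mutant genotypes were those of Dp16 replicate 5 and Dp16_2xIFNRs replicate 4. The part of these marker differences in the proteasome values was not tested.

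**Figure D4:**
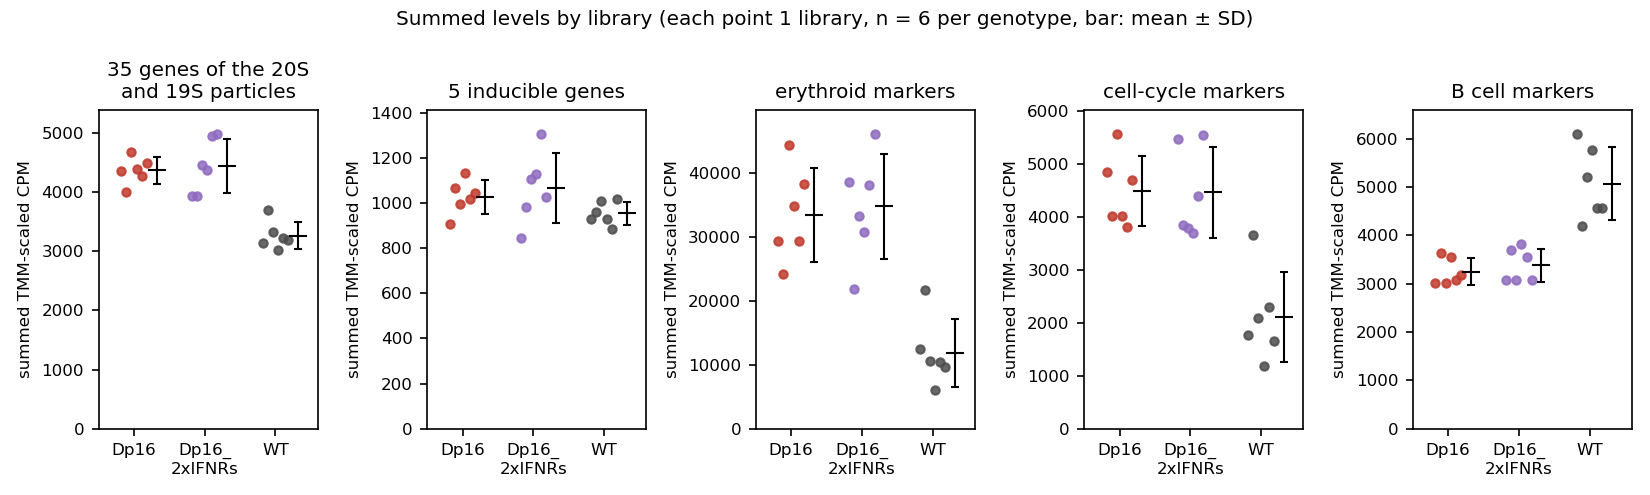
Summed TMM-scaled CPM (axes from 0) of the 35 genes of the 20S and 19S particles, the 5 inducible genes and the erythroid, cell-cycle and B cell markers, by genotype; each point is 1 library, bars are mean ± SD, n = 6. The 35 genes lie at 3935 or more in both mutant genotypes and at 3696 or less in WT, the erythroid and cell-cycle sums are higher and the B cell sum lower in the mutant genotypes.

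Genes that work with the proteasome were followed in 6 lists. Beside their counts stand the shares over all tested genes, 16.6% higher and 13.2% lower in Dp16 and 17.3% and 14.2% in Dp16_2xIFNRs. Of 5 chaperones that assemble the core, 3 were higher and 0 lower in Dp16, and 4 and 0 in Dp16_2xIFNRs, with median fold changes of 0.43 and 0.45. Psmg1, which pairs with Psmg2 to build the alpha ring, is the chaperone gene that lies on the triplicated interval. It had 35.03 to 46.7 CPM in Dp16 (median 39.2), 33.2 to 47.8 in Dp16_2xIFNRs (median 39.7) and 17.0 to 21.3 in WT (median 19.3). No mutant library overlapped WT. The edgeR fold changes were 1.04 ± 0.09 (adjusted p = 3.25e-07) and 1.07 ± 0.09 (2.09e-07). Psmg2 rose by 0.51 ± 0.10 and 0.46 ± 0.10, and Pomp, which matures the beta ring, by 0.43 ± 0.09 and 0.40 ± 0.09.

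Among 12 tested proteins that bind the proteasome, 7 were higher and 1 lower in each mutant genotype, with medians of 0.29 and 0.26. Uchl5, a deubiquitinase of the 19S particle, rose by 0.65 ± 0.10 in Dp16 and 0.64 ± 0.10 in Dp16_2xIFNRs. Txnl1, a thioredoxin-like protein of the 19S particle, rose by 0.66 ± 0.11 and 0.71 ± 0.11, and Sem1, a small lid subunit, by 0.53 ± 0.09 and 0.54 ± 0.09. Ubqln2, which ferries ubiquitinated proteins to the proteasome, fell to 25.4 to 45.3 CPM in Dp16 and 26.4 to 42.7 in Dp16_2xIFNRs, against 44.7 to 53.1 in WT, with fold changes of -0.42 ± 0.13 and -0.51 ± 0.13. One Dp16 library reached the WT range, and no Dp16_2xIFNRs library did. Of 6 ubiquitin and E1 genes, 1 was up and 1 down in Dp16, near the shares over all tested genes, with 2 and 0 in Dp16_2xIFNRs. Ubb, a polyubiquitin gene, rose by 0.26 ± 0.07 and 0.27 ± 0.07. Uba6, an E1 enzyme, fell by 0.34 on the log2 scale in Dp16 and was not called in Dp16_2xIFNRs (-0.23 ± 0.09, edgeR adjusted p = 0.0671).

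Of 8 genes known to control proteasome transcription, 1 was higher and 1 lower in each mutant genotype. Those counts are near the shares over all tested genes, 16.6% higher and 13.2% lower in Dp16 and 17.3% and 14.2% in Dp16_2xIFNRs. Nfe2l1, the factor that raises proteasome genes when proteasomes fail, had 129 to 158 CPM in Dp16 (median 149), 132 to 167 in Dp16_2xIFNRs (median 139) and 162 to 193 in WT (median 177). All Dp16 libraries lay below WT, and the highest Dp16_2xIFNRs library reached into the WT range. The edgeR fold changes were -0.28 ± 0.07 (adjusted p = 0.00693) and -0.30 ± 0.07 (0.00386). Nfyb, a subunit of the CCAAT-binding NF-Y, rose by 0.22 ± 0.07 and 0.30 ± 0.07.

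Class I peptide loading uses the peptides that the immunoproteasome makes. Of 11 such genes 4 were up and 0 down in Dp16, with 3 and 0 in Dp16_2xIFNRs, with medians of 0.02 and -0.00. The called ones were Calr, Canx and Pdia3, general chaperones of the endoplasmic reticulum, and B2m, the class I light chain, with Canx called in Dp16 alone (0.19, and 0.16 in Dp16_2xIFNRs); Canx was outside the naming rule and was added after its value was seen. B2m rose by 0.27 ± 0.08 and 0.24 ± 0.08, Calr by 0.31 ± 0.09 and 0.34 ± 0.09 and Pdia3 by 0.24 ± 0.09 and 0.27 ± 0.09. Among 9 regulators of the inducible subunits 1 was up and 3 were down in Dp16, with 0 and 5 in Dp16_2xIFNRs. Ifngr2, on the interval, was higher in Dp16 (0.30 ± 0.08) and lower in Dp16_2xIFNRs (-0.27 ± 0.08). Nlrc5, the transactivator of class I genes, fell by 0.32 in Dp16 and by 0.40 in Dp16_2xIFNRs on the log2 scale. Jak1, the kinase shared by interferon receptors, fell by 0.35 and 0.41, and Irf8, an interferon-regulated factor of myeloid and B cells, by 0.24 and 0.25.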

How the data were processed

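Poly(A) RNA of 18 mouse spleens was analysed, grouped by the genotype and sex labels. The authors deposited a table of raw counts per gene and a table of RPKM. Per the submitters' processing notes, the GRCm38 build was used with HISAT2 2.1.0, HTSeq 0.6.1, SAMtools 1.5, FastQC 0.11.5 and bcl2fastq. Whether HTSeq counted by strand is not given in the sources used here. The deposited RPKM equal the counts rescaled by gene length and library total, checked on 11538 genes with counts of at least 100. The tables use GENCODE release 24, and positions came from release 21 on GRCm38 for 55144 of 55385 gene IDs (99.6%). Promoter sequences are from RefSeq GRCm38.p6. A marker and a promoter motif that were examined are not reported here.

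Counts were filtered with filterByExpr, scaled by TMM and fitted in edgeR 4.0.16 (R 4.3.3) with the robust quasi-likelihood test, genotype and sex terms, all 18 libraries in one fit and Benjamini-Hochberg adjustment over all tested genes. A gene was called at an adjusted p below 0.05. Log2 RPKM ratios of catalytic subunits were compared by two-sided exact permutation. A count of 3, the limit that a count of 0 allows, corresponds to 0.0566 to 0.0882 CPM and covers counting error only. The 45 pairs of libraries within a genotype differed beyond sampling noise (chi-square per degree of freedom 35.1 to 200), so none was a repeat deposit. Alternatives were RLE and upper-quartile scaling, scaling without immunoglobulin and haemoglobin genes, DESeq2 1.42.0, limma 3.58.1 (voom, and trend on log2 of RPKM plus 0.1), other filters, a fit on 12 libraries, blocks by replicate number and by a code in the descriptions, a library index term, no sex term, and leaving out libraries. Figures were drawn with Python 3.11.15 and matplotlib 3.10.9.

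The members, gene lists and markers were chosen with earlier results of these data known. Genes named are the inducible subunits and their counterparts, the called members with the smallest p (5 per direction) or the largest change (3), the 3 scarcest, the most abundant of each role, name matches that are no subunit, Psmg1, and up to 3 called genes per direction of each linked list.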

Additional observations from a re-analysis of the deposited data

Results flagged for a closer look

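In 8 of 63 groups of 6 libraries, 1 library stood apart from the other 5 by more than Dixon's critical gap, one that chance gives in about 1 in 20 groups. These include 3 groups of WT with replicate 2 on top: Psmb7 had 89.6 CPM there, with the next library at 74.6, Psmd14 had 73.9 CPM, with the next at 61.6, and Psmd4 had 159 CPM, with the next at 136. Psmd14 also had a low library in Dp16, replicate 2, at 73.4 CPM, with the next at 83.9. Psme1 had 321 CPM in WT replicate 3, with the next at 292. Psme2b had 7.64 CPM in Dp16 replicate 2, with the next at 5.33, and 11.3 CPM in WT replicate 4, with the next at 8.29. Psma8 had 3.09 CPM in Dp16_2xIFNRs replicate 3, with the next at 2.04. WT replicate 2 was also the highest WT library in the erythroid and cell-cycle sums, and the part of those cells in these values was not tested.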

How the results depend on the processing

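The 35 genes of the 20S and 19S particles had positive fold changes against WT under every alternative run. All 35 were called in Dp16 except under the description code block, where 30 were. In Dp16_2xIFNRs 33 were called under that block, 32 on RPKM and 34 without the libraries rich in Gm42418. That block also left 0 members lower in Dp16 vs WT, where the value for Psme2b was -0.28 (adjusted p = 0.597), and over all tested genes it gave 1692 higher and 835 lower in Dp16 against 3091 and 2462 without it. Libraries of different genotypes with the same code had a mean correlation of deviations of 0.171 over 7 pairs. These ran from 0.0731 to 0.342, with 5 of them above 0.1. Libraries with other codes had a mean of -0.0118, a difference that was not tested. The code was therefore kept as an alternative, and the main fit does not use it. The labels do not say that replicate numbers pair the samples. Same-numbered libraries had a mean correlation of 0.0162 over 18 pairs, 7 of them above 0.1. Other-numbered libraries had -0.00316 over 90 pairs, 20 of them above 0.1, and the difference was not tested. With the replicate block, 38 members rose and 1 fell in Dp16 against WT, 39 rose and 1 fell in Dp16_2xIFNRs against WT, and 0 were called between the mutant genotypes. Over all 18634 tested genes that block gave 3008 higher and 2526 lower in Dp16, and 3090 and 2706 in Dp16_2xIFNRs.

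For the log2 ratios, sign permutation within the replicate block gave Psmb8/Psmb5 -0.34 for Dp16 against WT and -0.30 for Dp16_2xIFNRs against WT (adjusted p = 0.141 each) and Psmb10/Psmb7 -0.62 and -0.55 (0.0938 each), where the smallest exact p is 0.0312. Without the libraries rich in Gm42418, Psmb8/Psmb5 was -0.27 and -0.26, Psmb10/Psmb7 was -0.61 and -0.57, none of them called, and Psmb9/Psmb6 in Dp16_2xIFNRs vs Dp16 was -0.0049. Permutation within sex called Psmb9/Psmb6 in Dp16 vs WT (-0.19, exact permutation, adjusted p = 0.0112). Leaving out 1 library gave log2 ratio Psmb8/Psmb5, Dp16 vs WT, of -0.40 to -0.29, Dp16_2xIFNRs vs WT of -0.35 to -0.25 and Dp16_2xIFNRs vs Dp16 of -0.0073 to 0.0736. The same for log2 ratio Psmb9/Psmb6 gave -0.22 to -0.14, -0.21 to -0.12 and -0.0409 to 0.0716.

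Single-gene signs turned where values were near 0. Psmb10 log2 fold change, Dp16 vs WT, was 0.0031 with a filter at 1 CPM, 0.0008 by limma voom, 0.013 on 12 libraries, 0.0004 with the replicate block, 0.11 with the code block and 0.0034 without the libraries rich in Gm42418, and ran from -0.02 to 0.0166 leaving out 1 library. Psmb10 log2 fold change, Dp16_2xIFNRs vs WT, was -0.0469 on RPKM. Psmb8 log2 fold change, Dp16 vs WT, was -0.0292 with upper-quartile scaling, -0.0014 with no filter, -0.0839 on RPKM and -0.0204 with the library index term, and ran from -0.0089 to 0.0698 leaving out 1 library. The cause was not tested in any of these. Psma8 and Psme2b, at a few CPM, have the widest intervals.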
